A study of Mus musculus with 4 samples.

Results

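Proliferating cells from inflamed mouse joints were described by the macrophage, monocyte and osteoclast genes they carried and by their content of the Cx3cr1-driven TdTomato reporter. They were chosen from 3 single-cell libraries of hind paw synovium, taken 1, 2 and 5 days after arthritogenic serum. A cell counted as proliferating when its unique molecular identifiers (UMIs, each 1 counted RNA molecule) for Stmn1, Top2a, Birc5, Ube2c, Mki67 and Cdk1 summed to at least 6, with at least 3 of these 6 genes detected. By this rule 227 of 10599 retained cells were proliferating, and the series as a whole held 14314 retained cells. They numbered 69 of 4642 cells at day 1, or 1.49% (exact 95% interval 1.16 to 1.88). At day 2 they were 40 of 2722, or 1.47% (1.05 to 2.00), and at day 5 they were 118 of 3235, or 3.65% (3.03 to 4.35). All other retained cells of the same library are called the other cells below.

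The mice carried Cx3cr1creER:tdTomato, in which a tamoxifen-dependent Cre recombinase made from the Cx3cr1 locus turns on a red fluorescent reporter for good in a cell and its progeny. Tamoxifen was given 4 weeks before the K/BxN serum, which transfers joint-directed antibodies and causes a passive arthritis, and the day 0 mice, which had no serum, had received it as well. Cells positive for CD45 and CD11b and negative for Ly6G were sorted, a gate that keeps monocytes, macrophages and many dendritic cells and leaves neutrophils out. Each day has 1 library, the labels give neither the number, sex nor age of the mice behind it, and what belongs to a day cannot be told apart from what belongs to its library. There was therefore no replicate and no test, and every interval below covers counting error alone.

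Tissue macrophages can be maintained by division in place or by monocytes that arrive from the blood. Lining macrophages of the joint form an epithelium-like sheet towards the joint cavity, and interstitial macrophages and MHC class II-rich cells lie beneath it. In the joint Cx3cr1 is a marker of lining macrophages. Dividing cells make the proteins of DNA replication during S phase and those of the spindle and of chromosome segregation during G2 and mitosis. Osteoclasts, the bone-resorbing cells, arise when precursors of the monocyte and macrophage lineage fuse.

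The retained cells of days 1, 2 and 5 came from 4674, 2756 and 3265 barcodes with 18426363, 12218230 and 14995823 UMIs in all. Proliferating cells were deeper than the others, with median UMI counts of 8167, 8582.5 and 9132.5 against 3577, 4161 and 3843, and held 3.04%, 2.75% and 9.34% of the retained UMIs. Levels are therefore given as CPM, the UMIs of a gene summed over a group of cells and scaled to 1000000 UMIs of that group, so that deep cells weigh more. The libraries shared 10 to 22 barcodes per pair, none of them a proliferating cell. Pan-macrophage genes were present in all 3 libraries, at 23469, 25161 and 14684 CPM in the other cells, and genes of neutrophils, which the gate removes, were at 12.2, 14.9 and 50.1 CPM. Only 3, 3 and 4 of the 8 neutrophil genes were listed in these libraries.

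The 6 genes of the rule describe the choice itself. Stmn1, which destabilizes microtubules, was at 2336, 1872 and 1081 CPM in proliferating cells of days 1, 2 and 5 and at 24.5, 29.3 and 31.5 CPM in the other cells. Top2a, the topoisomerase that untangles replicated DNA, was at 623, 508 and 378 CPM against 2.19, 2.03 and 4.52. Mki67, which coats mitotic chromosomes, was at 446, 395 and 205 CPM against 4.55, 5.41 and 4.59. Birc5, a subunit of the chromosomal passenger complex, was at 605, 437 and 384 CPM, and Cdk1, the mitotic kinase, was at 295, 293 and 227 CPM. Ube2c, a ubiquitin-conjugating enzyme of the anaphase-promoting complex, was at 422, 263 and 361 CPM. All 6 genes were lower in proliferating cells of day 5 than in those of day 1.

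The summed UMIs of the 6 genes had medians of 32, 22.5 and 20 in the proliferating cells, with highest values of 102, 84 and 129. Just inside the rule, 1, 1 and 3 cells had exactly 6. Just outside it, 5, 8 and 11 other cells had 5, and 12, 11 and 17 reached 6 with fewer than 3 genes. None of the 6 genes was detected in 90.6%, 89.1% and 88.1% of the other cells. The rule favours deep cells: of all retained cells thinned to 500 UMIs, those with at least 2 UMIs of the 6 genes were 1.14%, 0.735% and 1.73% at days 1, 2 and 5 and 1.24% at day 0, against 3.27%, 3.97%, 6.99% and 3.55% before thinning.

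Promoters of late cell cycle genes are known for pairs of CCAAT boxes, bound by NF-Y, and for the cell cycle genes homology region (TTTGAA), bound by the complexes that hold these genes silent in resting cells. The promoters of Top2a and Mki67 are shown because both genes were part of the rule and both hold each motif. The bases run 5′ to 3′ along the gene's own strand over the 250 bases before the RefSeq start (GRCm38.p6), with CCAAT or its complement ATTGG and TTTGAA or its complement TTCAAA in capitals. Top2a lies on the minus strand with this window at chr11:99024190-99024439, and Mki67 on the minus strand with its window at chr7:135716380-135716629.
Top2a: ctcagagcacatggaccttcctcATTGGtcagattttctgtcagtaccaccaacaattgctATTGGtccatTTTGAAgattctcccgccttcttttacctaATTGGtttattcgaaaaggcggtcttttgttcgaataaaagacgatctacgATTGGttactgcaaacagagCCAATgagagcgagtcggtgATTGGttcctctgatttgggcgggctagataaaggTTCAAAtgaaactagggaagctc
Mki67: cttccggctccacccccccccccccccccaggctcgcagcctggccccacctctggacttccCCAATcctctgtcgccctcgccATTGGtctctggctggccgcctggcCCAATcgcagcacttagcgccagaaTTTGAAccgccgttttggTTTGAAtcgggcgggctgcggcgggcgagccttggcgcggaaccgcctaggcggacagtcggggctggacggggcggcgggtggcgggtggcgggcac

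The Top2a window holds CCAAT on either strand 6 times and TTTGAA 2 times, and the Mki67 window holds them 3 and 2 times. Among the 5 rule genes in the RefSeq table, 4 held CCAAT and 4 held TTTGAA, while Birc5 held neither and Stmn1 was not matched. Of all 32851 promoters of the same length, 33.8% held CCAAT and 16.0% held TTTGAA. For the G2 and M list, 44 of 53 genes matched with 49 promoters, of which 77.6% held CCAAT and 32.7% TTTGAA. For the S phase list, 33 of 43 genes matched with 37 promoters, of which 64.9% held CCAAT and 16.2% TTTGAA. A match describes letters in the window and is no measured binding site.

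Genes of DNA replication and mitosis outside the rule were high together in the proliferating cells of all 3 days. The S phase list summed to 3947, 3957 and 3123 CPM against 433, 442 and 474 in the other cells, and 39 of 39, 37 of 37 and 34 of 35 measured members had ratios of at least 2. The G2 and M list summed to 10396, 8198 and 6434 CPM against 656, 653 and 719, with 49 of 50, 46 of 49 and 47 of 48 members at least 2-fold higher. Of all genes tested (at least 20 CPM in either group), 12.6%, 13.5% and 15.4% were at least 2-fold higher in proliferating cells at days 1, 2 and 5. The rule was drawn from the same UMIs, so these counts only describe the choice.

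Rrm2, a subunit of the enzyme that makes deoxyribonucleotides, was at 301, 251 and 172 CPM against 1.12, 0.846 and 1.85 in the other cells. Tk1, thymidine kinase, was at 304, 293 and 183 CPM against 2.69, 2.20 and 3.70. Among the mitotic genes, Ccna2, which encodes cyclin A, was at 211, 185 and 143 CPM against 0.281, 0.0846 and 0.740. Nusap1, a spindle protein, was at 320.4, 227 and 135 CPM against 0.449, 0.338 and 0.518. Each of the 4 was lowest at day 5 in the proliferating cells and lower still in the other cells of every day.

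Single cells spanned both phases. More S than G2 and M UMIs were found in 11 of 69, 13 of 40 and 31 of 118 proliferating cells, and the rest had more G2 and M UMIs. The lists hold 43 and 53 genes, and in the other cells the G2 and M list was also higher, at 656, 653 and 719 CPM against 433, 442 and 474. Several genes of the rule act in mitosis, so this majority describes the rule and the lists and does not measure time spent in a phase. Hist1h2ap, a replication-dependent histone gene, was at 768, 819 and 603 CPM against 6.68, 7.27 and 10.4, and 20 of 21, 19 of 20 and 20 of 21 measured histone and chromatin genes were at least 2-fold higher. Cyclins and their inhibitors were less uniform, with 9 of 16, 8 of 16 and 6 of 15 members at least 2-fold higher and none 2-fold lower. Ccne2, the S phase entry cyclin E, was at 37.6, 50.8 and 52.4 CPM against 0.954, 0.423 and 1.92. Gmnn, which blocks re-replication of DNA, was at 252, 239 and 198 CPM against 26.7, 26.0 and 32.0. Cdkn1a, the p21 inhibitor, was at 320.4, 248 and 185 CPM against 139.8, 197 and 249, so its ratio was 2.29 (95% interval 1.96 to 2.67) at day 1 and 0.743 (0.652 to 0.843) at day 5.

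**Figure D1:**
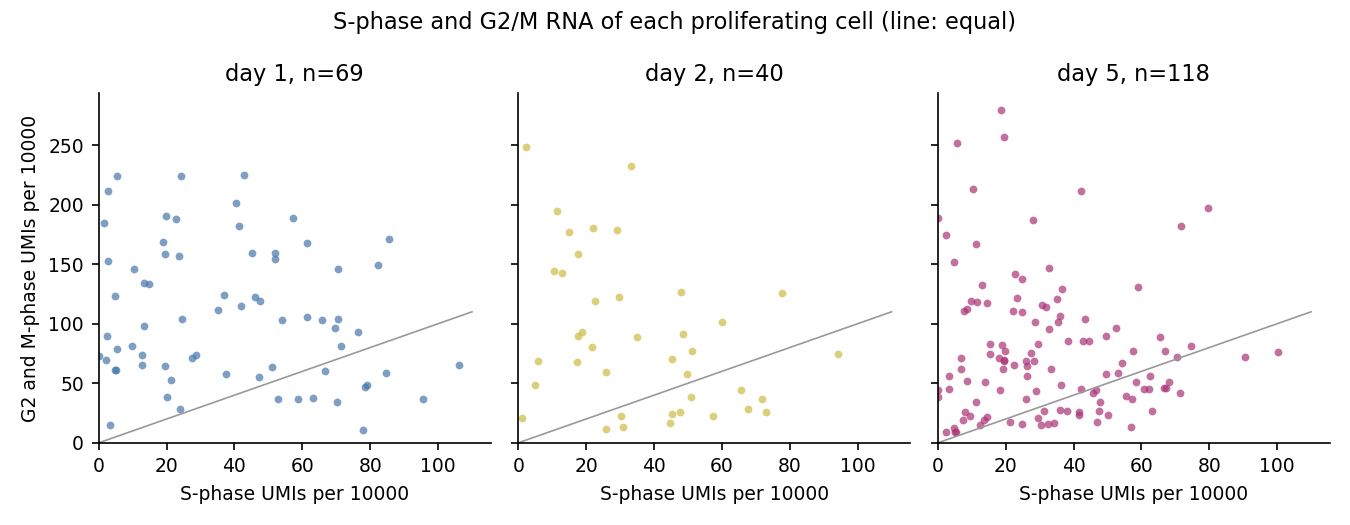
S phase list UMIs (x axis) and G2 and M phase list UMIs (y axis) of each proliferating cell, per 10000 UMIs of that cell, 1 point per cell, for days 1, 2 and 5. The line marks equal values of lists that hold 43 and 53 genes: most points lie above it, and 11, 13 and 31 cells lie below it.

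Each proliferating cell was placed by the commonest class among its 15 nearest other cells, after all cell cycle lists and TdTomato had been left out of the genes used. Classes came from clusters of the other cells alone and are called by marker genes, so "lining-like" means a cluster led by lining markers. The 2 earlier days were led by MHC class II-like cells, which took 43 of 69 proliferating cells at day 1 (62.3%, exact interval 49.8 to 73.7) and 21 of 40 at day 2 (52.5%, 36.1 to 68.5). At day 5 they took 27 of 118 (22.9%, 15.7 to 31.5), and osteoclast-like cells took 63 (53.4%, 44.0 to 62.6). Among the other cells MHC class II-like cells were 17.4%, 15% and 11.1%, and osteoclast-like cells 0.765%, 0.820% and 14.9%.

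Lining-like cells took 5, 7 and 4 proliferating cells, or 7.25% (2.39 to 16.1), 17.5% (7.34 to 32.8) and 3.39% (0.931 to 8.45), against 26.1%, 32.6% and 21.1% of the other cells. Interstitial-like cells took 2, 3 and 10, or 2.90% (0.353 to 10.1), 7.5% (1.57 to 20.4) and 8.47% (4.14 to 15), against 33.8%, 21.4% and 13.5%. The proliferating share was lower on each day, but its interval overlapped that of the other cells for the lining-like class at day 2 (30.8 to 34.4 in the other cells). The same held for the interstitial-like class at day 2 (19.9 to 23.0) and at day 5 (12.3 to 14.7). Monocyte-like cells were 25% of the other cells at day 5 and held 1 of the 118 proliferating cells. They held none of those of days 1 and 2, where 0 of 69 and 0 of 40 allow up to 4.35% and 7.5%. Only 32 of 4573 and 34 of 2682 other cells of days 1 and 2 were monocyte-like, shares below these bounds. Their absence among the proliferating cells of these days therefore shows no difference from the other cells. A cluster led by Aqp1 and Fxyd2, unnamed because its list has only 2 genes, took 15, 5 and 11.

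**Figure D2:**
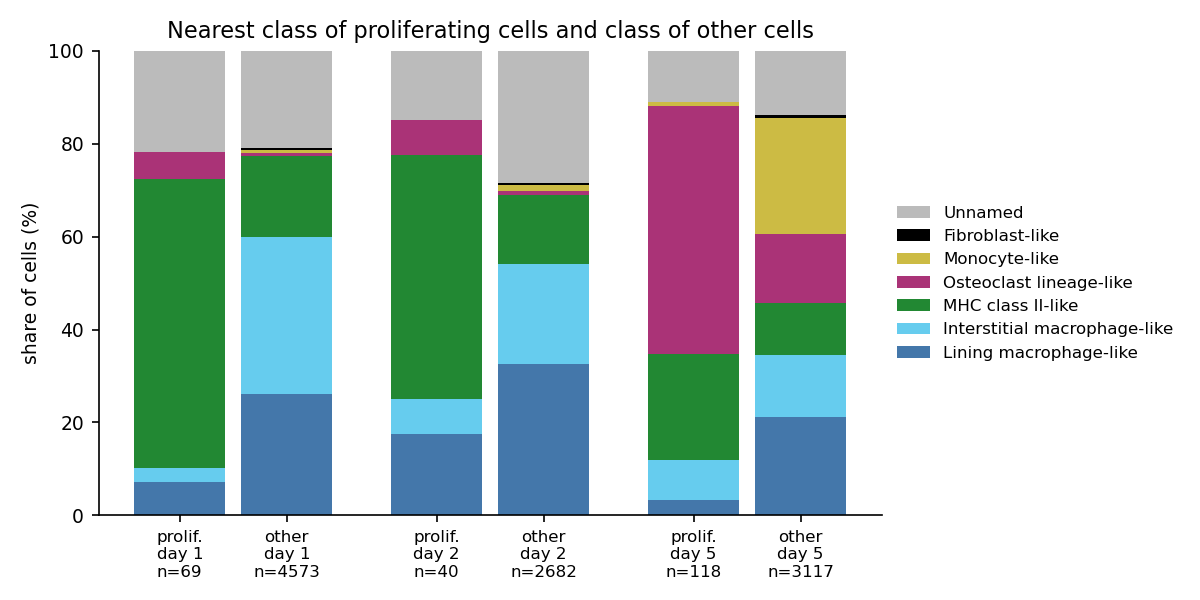
Share of cells (y axis, percent) in each class, as stacked bars for the proliferating cells, placed by nearest class, and the other cells of days 1, 2 and 5, with the number of cells under each bar. MHC class II-like cells make up 62.3% and 52.5% of proliferating cells at days 1 and 2, and osteoclast-like cells 53.4% at day 5.

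Class names were a coarse guide. When the other cells themselves were placed by their neighbours, 95.5% got their own class back, and 2, 2 and 5 proliferating cells were placed by less than a majority. Within the MHC class II-like class, proliferating cells fell mostly in a cluster led by Ccl17, Cd74 and Cd209a (28, 14 and 19 of them), while the largest cluster of other cells in that class was led by Cxcl13 and H2-Eb1 (412, 263 and 193 cells). The osteoclast-like cluster was led by Spp1, Acp5, Mmp9 and Ctsk, and haemoglobin transcripts were also among its leading genes. At a coarser clustering (Leiden resolution 0.5) it took no class name of its own, and 80 of the 118 proliferating cells of day 5 then fell in unnamed clusters. With day 5 clustered by itself, 33 of the 118 were osteoclast-like, 26 were like Arg1 macrophages and 45 were unnamed. By nearest cluster, 65 proliferating cells of day 5 fell in the osteoclast-like cluster, and 34 of them had at least 5 UMIs of the osteoclast gene Ctsk. The name was broader still for the other cells of day 5. Of these 3117 cells, 465 were osteoclast-like, while 93 (2.98%) had at least 5 Ctsk UMIs. With day 5 clustered by itself, 51 of them (1.64%) were osteoclast-like.

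**Figure D3:**
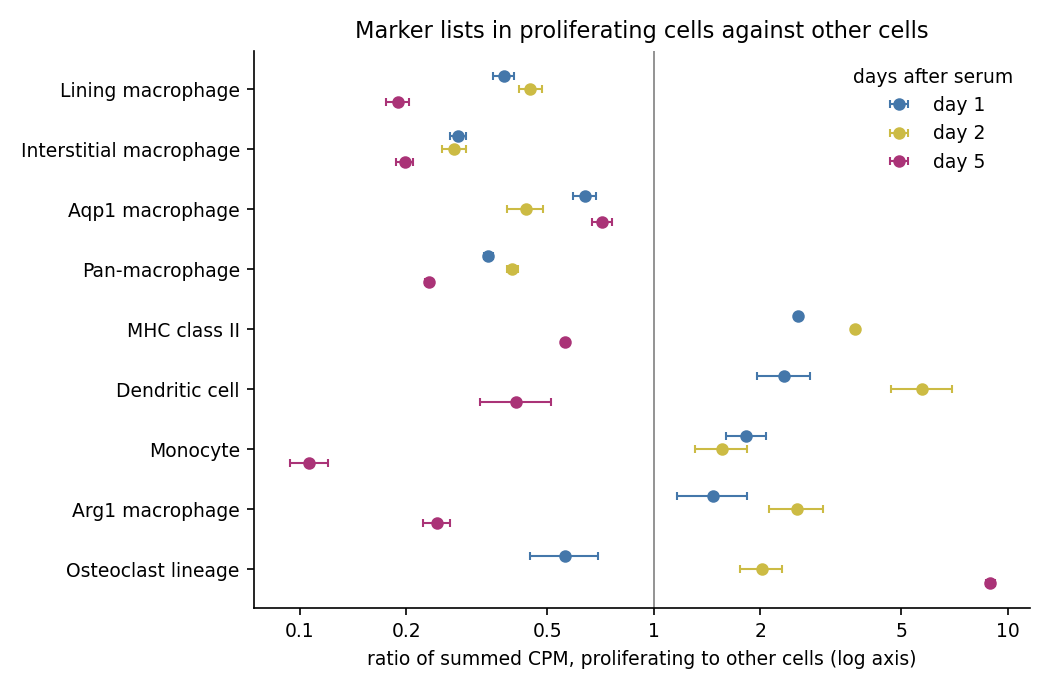
Ratio of the summed CPM in proliferating cells to that in other cells (log axis) for each marker list at days 1, 2 and 5, with exact 95% intervals for counting error. MHC class II lies at 2.56, 3.70 and 0.563, the osteoclast lineage at 0.562, 2.02 and 8.92, and the lining list at 0.377, 0.449 and 0.189.

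MHC class II genes, which present antigen to CD4+ T cells, were more abundant in proliferating than in other cells at days 1 and 2 and less abundant at day 5. The list summed to 38103 CPM at day 1 against 14884 in the other cells, a ratio of 2.56 (95% interval 2.52 to 2.60). At day 2 it summed to 40709.5 CPM against 11010.1, a ratio of 3.70 (3.63 to 3.76). At day 5 it summed to 10151 CPM against 18018, a ratio of 0.563 (0.554 to 0.573). All 6 measured members were at least 2-fold higher at days 1 and 2, and none was at day 5, when 1 (H2-DMa) was at least 2-fold lower. The other cells of day 5 thus had a higher level than those of days 1 and 2, and the proliferating cells a lower one. Without the 36 proliferating cells of day 5 that were rich in the osteoclast gene Ctsk, described further on, that day's ratio was 1.15.

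Cd74, the invariant chain, was at 19335, 21282 and 5327 CPM in proliferating cells and at 7994, 5974 and 9031 in the others. H2-Aa, an MHC class II alpha chain, was at 6122, 6451 and 1508 CPM against 2189, 1609 and 2896. H2-DMa, which helps load peptides, was at 712, 514 and 174 CPM against 264, 202 and 376. The RNA came from a subset of cells, since those with at least 100 MHC class II UMIs (40 of 69, 19 of 40 and 27 of 118) held 99.3%, 98.6% and 91.5% of it. Fewer than 10 such UMIs were found in 26, 17 and 58 proliferating cells. After thinning to 2000 UMIs, H2-Aa was detected in 60.9%, 56.4% and 39.0% of proliferating cells and in 27.8%, 26.1% and 38.8% of the others (unthinned 72.5%, 70% and 69.5% against 35.9%, 37.0% and 47.3%).

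Dendritic cell genes had the same order over the days, on few UMIs. Their list summed to 258, 362 and 56.0 CPM against 111, 63.1 and 137, with ratios of 2.33 (1.95 to 2.76), 5.74 (4.69 to 6.96) and 0.410 (0.322 to 0.514). Most of it was Cd209a, a lectin of monocyte-derived dendritic cells, at 236, 329 and 41.7 CPM against 99.5, 54.7 and 98.4 and found in 22, 14 and 14 proliferating cells. Flt3, the receptor for the dendritic cell growth factor, was found in 6, 7 and 6 cells. Of the list's other genes, Xcr1 and Clec9a were not listed on any day and Ccr7 was not at day 2, so they were unmeasured there. Ccr7 had no UMI in proliferating cells of day 1, and Zbtb46, Fscn1 and Ifi205 had none at day 2.

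Lining macrophage genes were lower in proliferating cells on every day. Their list summed to 1507, 2085 and 527 CPM against 3994, 4645 and 2783 in the other cells, with ratios of 0.377 (0.352 to 0.404), 0.449 (0.416 to 0.484) and 0.189 (0.176 to 0.204). At least 2-fold lower were 6, 5 and 7 of its 8 members, where 9.74%, 11.1% and 15% of all genes tested were so at days 1, 2 and 5. The median log2 ratios were -1.30, -1.09 and -2.23, against 0.06, 0.07 and 0.10 over all genes tested. Vsig4, a complement receptor, was at 469, 775 and 99.1 CPM against 1522, 1784 and 1033, and was found in 21, 18 and 28 proliferating cells. Sparc, a matricellular protein, was at 328, 383 and 102 CPM against 839, 1019 and 590.2. Trem2, a lipid-sensing receptor, was at 371, 535 and 203 CPM against 997, 1064 and 645. Proliferating cells of day 2 had the highest and those of day 5 the lowest level of each of the 3 genes.

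Interstitial macrophage genes were lower still relative to the other cells at days 1 and 2. Their list summed to 2450.5, 1941 and 932 CPM against 8735, 7099 and 4699.8, with ratios of 0.281 (0.266 to 0.296), 0.273 (0.253 to 0.295) and 0.198 (0.187 to 0.209). At least 2-fold lower were 9, 10 and 10 of its 10 members. Retnla, a secreted protein of alternatively activated macrophages, was at 231, 38.9 and 80.4 CPM against 1671, 862 and 1102. Lyve1, a hyaluronan receptor, was at 376, 275 and 97.7 CPM against 1505, 1334 and 588. Folr2, a folate receptor, was at 342, 467 and 143 CPM against 1329, 1349.5 and 818.

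Genes shared by tissue macrophages were lower as well. The pan-macrophage list summed to 8001, 10034 and 3405 CPM against 23469, 25161 and 14684, with 7, 6 and 8 of 9 members at least 2-fold lower. C1qa, which starts the classical complement pathway, was at 2425, 3263 and 817 CPM against 7324, 8022 and 4531. Csf1r, the receptor for the growth factor M-CSF, was at 390.2, 502 and 288 CPM against 1107, 1077 and 729.8, yet 55 of 69, 34 of 40 and 99 of 118 proliferating cells had at least 1 UMI of it. Aqp1 and Fxyd2, the water channel and ion pump subunit that lead the unnamed cluster, summed to 1334, 873 and 677 CPM against 2087, 2009.7 and 948.

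Monocyte genes were split at days 1 and 2 and low throughout at day 5. The list summed to 453, 425 and 186 CPM against 248, 273 and 1750.0, with ratios of 1.83 (1.60 to 2.08), 1.56 (1.31 to 1.84) and 0.106 (0.0937 to 0.120). The sum and the median differ in direction on the first 2 days, since the median log2 ratios were -0.29, -1.23 and -3.30. At day 1, 2 of 4 measured members were at least 2-fold higher and 2 lower, at day 2 they were 2 and 3 of 5, and at day 5 all 9 were lower. Ccr2, the receptor that brings monocytes to tissues and that dendritic cells also carry, was at 392, 335 and 97.0 CPM against 140.4, 108 and 393. Ms4a4c was at 46.5, 77.8 and 26.6 CPM against 18.9, 14 and 224.

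The genes of freshly arrived monocytes were near 0 in proliferating cells. Ly6c2, which encodes the surface marker of inflammatory monocytes, had 1 cell with a UMI at day 1, 1 at day 2 and 4 at day 5, for 1.79, 2.99 and 5.75 CPM against 5.50, 10.7 and 137. Plac8 had no UMI in proliferating cells at days 1 and 2 and was at 14.4 CPM in 11 cells at day 5, against 30.4, 43.5 and 463 in the other cells. Chil3, a chitinase-like protein of monocytes, was at 0, 0 and 10.1 CPM against 3.20, 21.0 and 114. Spp1, the osteopontin gene of the Arg1 macrophage list, was at 149, 413 and 326 CPM against 87.9, 145 and 1248, while Arg1 itself was found in 0, 1 and 10 proliferating cells. At day 2, 1 cell held 85 of the 138 Spp1 UMIs, and without it the Spp1 ratio was 1.13 (0.840 to 1.48). The Arg1 list as a whole summed to 149, 416 and 398 CPM against 101, 164 and 1632, and in proliferating cells of days 1 and 2 all but 1 of its UMIs were Spp1.

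TdTomato was lower in proliferating than in other cells on each day. It was at 290.0 CPM against 592 at day 1, a ratio of 0.490 (95% interval 0.417 to 0.572). At day 2 it was at 428 CPM against 785, a ratio of 0.545 (0.459 to 0.643), and at day 5 at 164 CPM against 402, a ratio of 0.407 (0.355 to 0.465). Cx3cr1, whose locus drives the Cre, was at 68.0, 86.7 and 23.7 CPM against 146, 188 and 119. Both transcripts were highest at day 2 and lowest at day 5 in proliferating and in other cells alike.

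The reporter was concentrated in a minority of cells, in the proliferating and in the other cells alike. At least 5 TdTomato UMIs were found in 12 of 69, 11 of 40 and 18 of 118 proliferating cells (17.4%, 27.5% and 15.3%), which together held 77.8%, 86.0% and 75.4% of the group's TdTomato UMIs. Such cells were 21.1%, 32.3% and 15.4% of the other cells and held 75.1%, 82.0% and 70.2% of their TdTomato UMIs. No TdTomato UMI was found in 40, 19 and 67 proliferating cells (58.0%, 47.5% and 56.8%), against 52.7%, 40.3% and 59.2% of the shallower other cells. Thinned to 2000 UMIs, 26.1%, 30.8% and 21.2% of proliferating cells had a TdTomato UMI, against 43.4%, 54.1% and 32.5% of the others and 84.3%, 87.1% and 84.4% of lining-like other cells. Fibroblast-like cells, in which the Cx3cr1 locus should be silent, were few. A TdTomato UMI was found in 14.3% of 7 (exact interval 0.361 to 57.9), 37.5% of 8 (8.52 to 75.5) and 12.5% of 16 (1.55 to 38.3). The source of these UMIs was not tested, and a single UMI is not taken here to mark a labelled cell.

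Reporter content differed between the nearest classes. All 16 lining-like proliferating cells (5, 7 and 4) carried TdTomato, with ranges per cell of 10 to 16, 5 to 21 and 2 to 14 UMIs on the 3 days. Their level was 1254, 1093 and 972 CPM against 1213, 1322 and 1198 in lining-like other cells, and the intervals of the ratio (0.786 to 1.33, 0.648 to 1.04 and 0.554 to 1.15) include 1. Proliferating cells of the cluster led by Ccl17, Cd74 and Cd209a were low, at 50.9, 37.4 and 37.6 CPM against 105, 96.2 and 110.3 in its other cells. These values do not cover the other MHC class II-like clusters. The cluster led by Cd209a and Mgl2 took 9, 2 and 1 proliferating cells, and those of day 1 held 0 to 7 TdTomato UMIs each. The cluster led by Cxcl13 and H2-Eb1 took 5, 5 and 5. These held 2, 1, 0, 0 and 14 TdTomato UMIs at day 1 and 0, 20, 0, 2 and 0 at day 2. At day 5 they held 25, 6, 0, 6 and 0. The low level was thus not shared by all proliferating cells placed in this class. The cells with 14, 20 and 25 TdTomato UMIs held 1, 2 and 6 MHC class II UMIs. Osteoclast-like cells of day 5 were at 85.4 CPM against 83.5. In the Aqp1 and Fxyd2 cluster the values were 322, 589 and 655 CPM against 343, 434 and 309.

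In proliferating cells with at least 5 TdTomato UMIs the lining list summed to 4416, 4778 and 1519 CPM, against 603, 748 and 301 in proliferating cells without the reporter. The day 5 sum was below the 2783 CPM of that day's other cells. Lining UMIs per cell ranged from 5 to 116, 5 to 126 and 2 to 111, with medians of 21.5, 41 and 8, and the lining-like cells among them held 83.2%, 89.8% and 63.6% of the sum. MHC class II ran the other way, at 6035, 623 and 3595 CPM against 47716, 68202 and 15005. By nearest class, 5, 7 and 3 of the 12, 11 and 18 cells were lining-like, 3, 1 and 4 MHC class II-like, 2, 1 and 6 osteoclast-like, 2, 2 and 4 in the Aqp1 and Fxyd2 cluster, and 1 of day 5 monocyte-like. The class did not always match the cell's own RNA, since only 2, 0 and 2 of these cells had at least 100 MHC class II UMIs, and both osteoclast-like cells of day 1 lacked Ctsk UMIs. S phase genes were at 4619, 5076 and 2804 CPM in them and at 4064, 3947 and 3381 in those without the reporter.

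**Figure D4:**
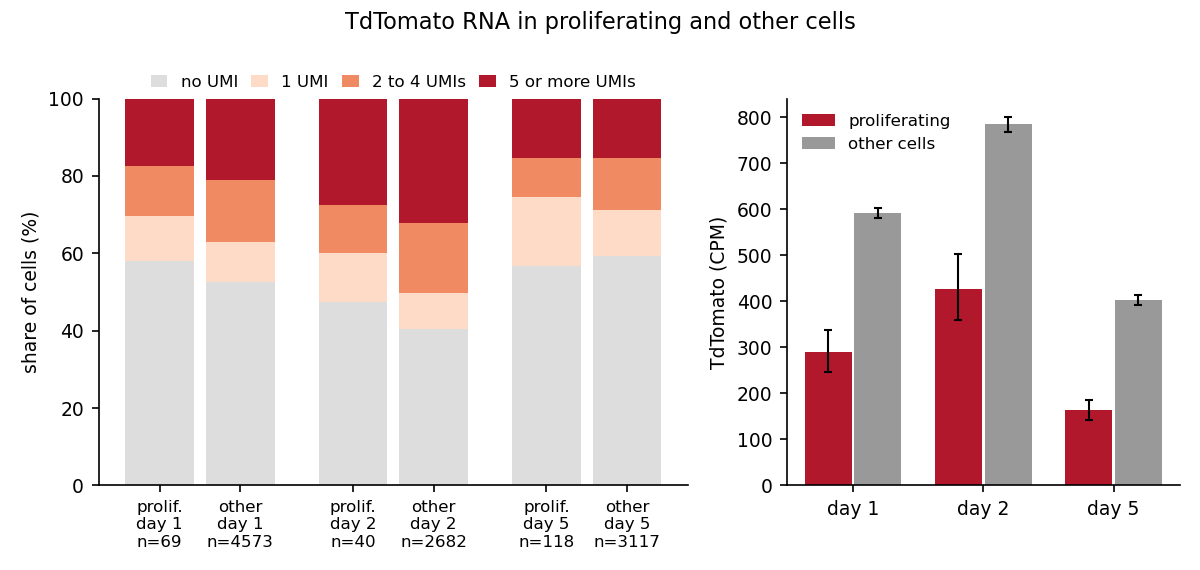
TdTomato in proliferating and other cells at days 1, 2 and 5: the share of cells with 0, 1, 2 to 4 and at least 5 UMIs (left, percent) and the level in CPM with exact 95% intervals (right). The level in proliferating cells is 290.0, 428 and 164 CPM against 592, 785 and 402.

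Osteoclast genes had the highest ratio of the myeloid marker lists at day 5. The list summed to 152 CPM against 271 at day 1, a ratio of 0.562 (0.448 to 0.697), and to 676 against 335 at day 2, a ratio of 2.02 (1.76 to 2.31). The day 2 value rested on 1 cell, which held 135 of the 226 UMIs, and without it the ratio was 0.841 (0.675 to 1.03). At day 5 it summed to 6427 CPM against 721, a ratio of 8.92 (8.66 to 9.18), and all 7 measured members were at least 2-fold higher. The same cell held 75 of the 137 Ctsk and 44 of the 63 Acp5 UMIs of day 2. Acp5, the acid phosphatase of osteoclasts, was at 35.8, 188 and 1617 CPM against 76.5, 82.5 and 207. Ctsk, the collagen-degrading cathepsin K, was at 51.9, 409.7 and 3181 CPM against 134, 186 and 350.2. Mmp9, a gelatinase, was at 26.8, 20.9 and 1074 CPM against 22.5, 24.1 and 58.6.

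Genes of osteoclast fate and fusion were also higher at day 5. Nfatc1, the master transcription factor of osteoclasts, was at 28.6, 26.9 and 144 CPM against 25.6, 24.4 and 43.2. Atp6v0d2, a proton pump subunit needed for fusion, was at 8.95, 26.9 and 272 CPM against 7.63, 13.4 and 34.6. Dcstamp, a fusion receptor, had no UMI in proliferating cells of days 1 and 2 and was at 63.9 CPM in 20 cells against 10.1 at day 5. Car2, which supplies acid for resorption, was at 101 CPM in 21 proliferating cells of day 5 against 4.96.

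These transcripts came from part of the day 5 cells. At least 5 Ctsk UMIs were found in 36 of 118 proliferating cells (30.5%), which were deep, with a median of 21731 UMIs, and held 53.2% of the group's UMIs. At days 1 and 2 such cells numbered 2 and 5. Among all 129 cells of day 5 with at least 5 Ctsk UMIs, 27.9% (20.4 to 36.5) were proliferating, and the 93 others had a median of 5959 UMIs. The 36 cells had the osteoclast list at 11878 CPM, MHC class II at 849 CPM and TdTomato at 90.5 CPM, and 19 of them had a TdTomato UMI. The remaining 82 had the osteoclast list at 233 CPM, MHC class II at 20721 CPM and TdTomato at 247 CPM.

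With the 36 cells left out, the day 5 ratio to the other cells was 0.324 for the osteoclast list and 1.15 for MHC class II, each on the other side of 1, and 0.614 for TdTomato. The 93 other cells with at least 5 Ctsk UMIs stayed in, so a lower osteoclast ratio was built into this setting. Depth moved with the osteoclast genes too, and with the other cells weighted to the depth of the proliferating cells the ratio was 0.674 at day 2 and 0.631 at day 5. Acp5, Ctsk, Mmp9, Atp6v0d2 and Dcstamp each had day 5 ratios below 1 under both settings. The part of depth in the osteoclast and MHC class II ratios was otherwise not tested. Rich MHC class II and rich Ctsk content hardly met in 1 cell, since 0, 1 and 1 of the cells with at least 100 MHC class II UMIs had at least 5 Ctsk UMIs.

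**Figure D5:**
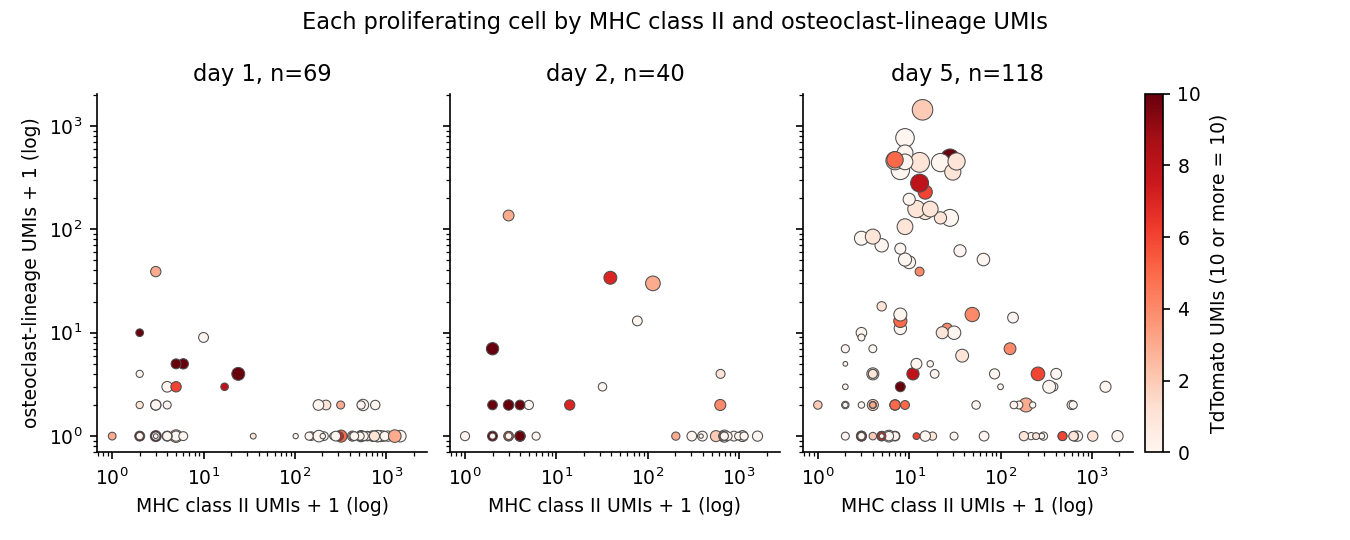
MHC class II UMIs (x axis) against osteoclast lineage UMIs (y axis) of each proliferating cell of days 1, 2 and 5, with 1 added to each and both axes logarithmic. Point area stands for the cell's UMIs and colour for its TdTomato UMIs, shown up to 10. At day 5 the 36 cells with at least 5 Ctsk UMIs hold 6 to 1430 osteoclast UMIs with a median of 137.5, and no other proliferating cell holds more than 14.

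Genes of macrophage growth and self-renewal were not higher as a group. Their list summed to 2282, 2515 and 1924 CPM against 4294, 4276 and 3658, with 0, 0 and 1 member at least 2-fold higher and 6 of 16, 8 of 15 and 11 of 17 lower. The member that was higher was Myc, a driver of cell growth, at 21.5, 8.97 and 40.9 CPM against 14, 12.0 and 16.5. Maf, a transcription factor that restrains self-renewal, was at 143, 197 and 58.2 CPM against 492, 423 and 293. Klf2 was at 124, 80.7 and 42.4 CPM against 209, 279 and 194. Csf2ra, the alpha chain of the GM-CSF receptor, was at 281, 272 and 145 CPM against 188, 185 and 235.

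Inflammatory genes were higher in sum than in the other cells at day 1, near them in sum at day 2 and lower at day 5. The list of mediators summed to 958, 1214 and 599 CPM against 662, 1208 and 3412, with ratios of 1.45 (1.32 to 1.58), 1.00 (0.908 to 1.11) and 0.176 (0.164 to 0.188), and all 8 measured members were at least 2-fold lower at day 5. At day 1, 1 of 6 measured members was at least 2-fold higher, where 12.6% of all genes tested were so. On that day 1 cell held 96 of the 535 UMIs, and without it the ratio was 1.22 (1.11 to 1.34). At day 2, 1 cell held 94 of the 406 UMIs, and without it the ratio was 0.793 (0.706 to 0.887). Il1b, the interleukin-1 beta gene, was at 131, 53.8 and 62.5 CPM against 51.6, 91.6 and 1232. Cxcl2, a neutrophil attractant, was at 510.1, 691 and 402 CPM against 270.0, 619 and 1549.5. In the other cells the list was highest at day 5, and in the proliferating cells it was lowest then.

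Interferon-response, immediate early and glycolytic genes differed in direction. Interferon-response genes were lower on each day, at 315, 269 and 379 CPM against 665, 651 and 2012. Ifitm3, an antiviral membrane protein, made up most of that list, at 256, 224 and 322 CPM against 514, 476 and 1743. Immediate early genes were at 4369, 4839 and 2474 CPM against 4577, 6968 and 7335, and 0, 2 and 11 of 11 were at least 2-fold lower. Genes of glycolysis and hypoxia were higher in sum, at 4828, 4911 and 7012 CPM against 3425, 3620.2 and 4942. Of their measured members, 2 of 11, 1 of 10 and 1 of 11 were at least 2-fold higher, and 1, 0 and 1 were lower. Over all genes tested, 12.6%, 13.5% and 15.4% were higher and 9.74%, 11.1% and 15% lower, so the counts for this list do not set it apart. Pgk1, a glycolytic kinase, was at 324, 296 and 549 CPM against 117, 129 and 235, while Hif1a, the oxygen-regulated transcription factor, was at 62.6, 38.9 and 46.7 CPM against 60.6, 61.7 and 154. Chemokine genes summed to 2277, 2303 and 2454 CPM against 3104, 2855 and 2768.

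The 10 highest-ranked genes of each day outside every cell cycle list included further factors of replication and mitosis. Pclaf, a PCNA-associated factor, ranked first on all 3 days at 510.1, 341 and 323 CPM against 2.02, 1.18 and 3.03. Pbk, a mitotic kinase, ranked second on all 3 days at 204, 159 and 125 CPM against 0.112, 0.169 and 1.04. Also ranked on all 3 days were Asf1b, Cenpm and Smc2, which serve histone supply, the centromere and chromosome condensation. At days 1 and 2 the list also held Kif22 and Knl1. At day 1 alone it held Ncapg and Kif20a, and at day 2 alone Lockd, Esco2 and Shcbp1. Cdkn3 was in the lists of days 1 and 5. At day 5 the list also held Mmp9, Car2, Cenpw and Sgo1, of which Mmp9 and Car2 belong to osteoclasts.

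The 10 lowest-ranked genes of day 1 were Tcp11l2, Clec4n, Pla2g7, Retnla, Tmem86a, Cd209f, Dcn, Hmox1, Ctsl and Timd4. Hmox1, which breaks down haem, was at 41.2 CPM against 249 at day 1, and Timd4, a receptor for dying cells, at 16.1 CPM against 97.7. At day 2 they were Retnla, Cd209f, Selenbp1, Apoe, Selenop, Ccl8, C4b, St6galnac4, Ccl24 and Dcn. Apoe, the lipid carrier, was at 1899 CPM against 10272 at day 2. At day 5 the list was Plac8, Ifitm1, Il1b, Hp, Ly6c2, Retnla, Slpi, Ifitm6, Ier3 and Sirpb1c, of which Plac8, Hp and Ly6c2 are members of the monocyte list. Retnla was the 1 gene ranked on all 3 days.

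Genes of other cell types were scarce in the proliferating cells where they were listed. Many were not listed and so were unmeasured, which limits what these low values show. Fibroblast genes summed to 12.5, 15 and 5.75 CPM against 122, 94.2 and 105, and neutrophil genes to 3.58, 2.99 and 12.9 CPM. Of the 8 neutrophil genes, 3, 3 and 4 were listed. Granulocyte-monocyte progenitor genes, of bone marrow cells that divide, summed to 1.79, 0 and 5.03 CPM with 1, 0 and 7 UMIs. Only 2, 2 and 3 of these 7 genes were listed. Of the 8 genes of NK or T cells, 0 were listed at day 1 and 1 at day 2, where it had no UMI. At day 5 the list had 10 UMIs, all Trbc2 in 3 cells. B cell genes had 3, 1 and 1 UMIs and endothelial genes 3, 1 and 2. Of the 4 B cell genes, 2 and 1 were listed at days 1 and 2. Mast cell genes had no UMI, but only 2 and 0 of 4 were listed on those days. Erythroid genes had 1, 2 and 6 UMIs, at 4.31 CPM against 178 in the other cells at day 5. The plasmacytoid dendritic cell list was at 217, 254 and 154 CPM against 360.4, 393 and 320.4, carried by Bst2 and Tcf4, which other myeloid cells also express, while Siglech had 1, 1 and 0 UMIs.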

How the data were processed

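Droplet RNA profiles of sorted synovial myeloid cells (Chromium Single Cell 3′ v2, 17400 cells loaded for each library, per the labels' protocols) were taken as deposited: UMI counts of each gene in each barcode, before any normalization. The submitters' processing notes name mm10, Cell Ranger 2.1.0, R 3.5.2 and Seurat 2.3, with no role for any of them in the sources used here. Genes missing from a file were treated as unmeasured, not as 0.

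Cells needed 500 genes or more and a mitochondrial share below 10% (Python 3.11.15, scanpy 1.11.5). Counts were added up over proliferating and over other cells of a library and scaled to CPM. Intervals are 95% throughout, exact Poisson for levels, conditional Poisson for ratios and Clopper-Pearson for shares; a share of 0 is bounded by 3 counts of the total. List members were measured if listed with 20 CPM or more in either group, and ratios used 3 counts in place of 0. No test was made, because each day has 1 library and the cells were chosen on the same UMIs. The members and gene lists were chosen with earlier results of these data known.

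Clusters were built from the other cells only (log values per 10000 UMIs, 2000 variable genes, 30 components, 15 neighbours, leidenalg 0.10.2 at resolution 1). A class name required 3 or more of its markers with log2 ratios of 0.5 or higher (20 CPM added to both sides) and a marker among the top 10 genes. That naming rule, without erythroid and pan-macrophage lists, was chosen after seeing the data. Scrublet marked 1, 6 and 6 cells (0.0215%, 0.220% and 0.185%) and so did not work here. Doublets stayed in, and an alternative dropped the 182, 73 and 95 highest scores, which included 0, 1 and 5 proliferating cells.

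Genes were named per day if they reached 50 CPM in either group and a ratio of 2, taking the 10 most extreme per direction (5 CPM added for ranking) outside the cell cycle lists. Genes of the mitochondrion, ribosome, haemoglobin and sex chromosomes and predicted genes were passed over. TdTomato, Cx3cr1 and at most 4 members of every list were added, and more list members were named for their roles with their values in view. A list member is not reported here. Promoters are RefSeq's (GRCm38.p6). In simulated counts for days 1, 2 and 5 over 5477, 5598 and 5287 genes, 100%, 99.5% and 100% of 200 genes changed 4-fold passed 2-fold, and 94.9%, 95.7% and 95.8% of intervals held the true ratio. These counts were Poisson draws for whole groups, the model the intervals assume, so coverage near 95% was built in. They had no spread between cells and do not show how the intervals fare where 1 cell holds most UMIs.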

Additional observations from a re-analysis of the deposited data

Results flagged for a closer look

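For 6 marker or function lists the ratio of proliferating to other cells lay above 1 on 1 day and below 1 on another, with counting intervals that did not include 1. The difference between days was not tested, since each day has 1 library. MHC class II genes had ratios of 2.56, 3.70 and 0.563 at days 1, 2 and 5, and dendritic cell genes 2.33, 5.74 and 0.410. Monocyte genes had ratios of 1.83, 1.56 and 0.106, and the Arg1 macrophage list 1.47, 2.53 and 0.244. All but 1 of that list's UMIs in proliferating cells of days 1 and 2 were Spp1, and without 1 cell its day 2 ratio was 1.01. Osteoclast genes had ratios of 0.562, 2.02 and 8.92. They were 0.119, 0.674 and 0.631 with other cells weighted to the depth of the proliferating cells. Without proliferating cells of at least 5 Ctsk UMIs they were 0.267, 0.124 and 0.324, so both settings lay below 1 on all 3 days. The second setting kept the 111, 91 and 93 other cells with at least 5 Ctsk UMIs, so its lower osteoclast ratios were built in. The MHC class II ratio of day 5 was 1.15 under the second of these. Inflammatory mediators had a ratio of 1.45 at day 1 and of 0.176 at day 5, and without 1 cell the day 1 ratio was 1.22. In the other cells the monocyte, Arg1 and inflammatory lists were each highest at day 5, at 1750.0, 1632 and 3412 CPM.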

How the results depend on the processing

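No paired analysis was possible because each day has 1 library. The TdTomato, lining, interstitial and monocyte ratios kept their side of 1 in 12 of 12 alternatives on each day, and TdTomato ranged from 0.446 to 0.519, 0.485 to 0.645 and 0.365 to 0.690 at days 1, 2 and 5. MHC class II did so in 12, 12 and 11 and osteoclast genes in 12, 9 and 10 of 12. Leaving out the proliferating cells rich in Ctsk, but not such other cells, reversed both at day 5. That alternative was chosen after seeing the data. Of 405 recomputed sums, shares and counts, 279 stayed within the counting interval or 1.5 times the count, 120 moved further and 6 crossed 1. Of 3426 recomputed single-gene ratios, 46 crossed 1. Where values moved, the cause was not tested beyond what each alternative removes. At resolution 0.5 no cluster took the osteoclast-like name. Genes with few UMIs, such as those of monocytes at days 1 and 2, are limited by the 40 to 69 cells behind them.

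Without a filter on low values, genes past 2-fold numbered 1697, 1713 and 1903 higher and 1286, 1236 and 1853 lower at days 1, 2 and 5. With a minimum of 50 CPM, genes past 2-fold numbered 421, 399 and 497 higher and 286, 299 and 508 lower at days 1, 2 and 5. With cells of at least 1000 genes, ratios were 2.66 and 3.85 (MHC class II) at days 1 and 2. Below 5% mitochondrial UMIs, ratios were 0.925, 2.76 and 9.41 (osteoclast) at days 1, 2 and 5, 0.248 and 0.177 (interstitial) at days 2 and 5, 3.8 (MHC class II) at day 2. With 10 or more UMIs required, ratios were 2.66, 3.36 and 0.580 (MHC class II) at days 1, 2 and 5, 0.308 and 7.03 (osteoclast) at days 1 and 5. With 4 or more UMIs of 2 genes required, ratios were 0.253, 0.302 and 0.236 (interstitial), 2.49, 3.54 and 0.541 (MHC class II) and 0.772, 1.66 and 8.61 (osteoclast) at days 1, 2 and 5. Among single genes, Acp5 (1.11) and Arg1 (2.05) crossed 1 at day 1, Il1b (1.51) crossed 1 at day 2. Without Stmn1 in the rule (4 UMIs of 2 genes), ratios were 2.61 and 0.581 (MHC class II) at days 1 and 5, 0.485 (lining) at day 2, 7.56 (osteoclast) at day 5. Among single genes, Cd244 (0.688) crossed 1 at day 2. With 3 UMIs of 2 rule genes after thinning to 2000 UMIs, ratios were 0.320, 0.538 and 0.228 (lining), 0.253, 0.325 and 0.248 (interstitial) and 2.71, 3.55 and 0.694 (MHC class II) at days 1, 2 and 5, 2.08 (monocyte) at day 1, 0.261 and 3.67 (osteoclast) at days 1 and 5, 0.645 and 0.566 (TdTomato) at days 2 and 5. Proliferating cells were 2.91% at day 5. Among single genes, Cd244 (0.743) crossed 1 at day 2. With the mean of each cell, ratios were 2.66, 4.27 and 0.878 (MHC class II) at days 1, 2 and 5, 0.830 and 9.40 (osteoclast) at days 1 and 5, 0.512 (TdTomato), 0.262 (lining), 0.342 (interstitial) and 0.141 (monocyte) at day 5. Among single genes, Aqp1 (1.02) crossed 1 at day 1, Il1b (1.29) crossed 1 at day 2, Aqp1 (1.09), Ccl8 (1.37), Klrd1 (1.09) and St6galnac4 (0.969) crossed 1 at day 5. With other cells weighted to the depth of the proliferating cells, ratios were 0.335 and 0.392 (lining) at days 1 and 5, 0.395, 0.362 and 0.425 (interstitial), 1.88, 2.73 and 0.852 (MHC class II) and 0.119, 0.674 and 0.631 (osteoclast) at days 1, 2 and 5, 1.86 and 0.295 (monocyte) at days 2 and 5, 0.690 (TdTomato) at day 5. Genes past 2-fold numbered 508 higher and 278 lower at day 5. Among single genes, Aqp1 (1.13), Ccl8 (1.16), Hp (1.47) and Spp1 (0.795) crossed 1 at day 1, Acp5 (0.772), Cdkn1a (0.949), Ctsk (0.784) and Hp (1.20) crossed 1 at day 2, Acp5 (0.521), Aqp1 (2.04), Atp6v0d2 (0.713), Ccl17 (0.648), Ccl8 (1.14), Ctsk (0.644), Cxcl1 (1.00), Dcstamp (0.334), Klrd1 (1.04), Mmp9 (0.819), St6galnac4 (0.906), Tfrc (0.945) and Trbc2 (0.506) crossed 1 at day 5. With cell cycle lists out of the totals, ratios were 2.66, 3.81 and 0.577 (MHC class II) at days 1, 2 and 5. Without proliferating cells of 5 or more Ctsk UMIs, and with all other cells kept, ratios were 2.65, 4.58 and 1.15 (MHC class II) and 0.267, 0.124 and 0.324 (osteoclast) at days 1, 2 and 5, 0.310 and 0.365 (interstitial) and 1.88 and 0.183 (monocyte) at days 2 and 5, 0.614 (TdTomato) and 0.332 (lining) at day 5. Genes past 2-fold numbered 556 lower at day 5. Among single genes, Acp5 (0.137) and Ctsk (0.101) crossed 1 at day 2, Acp5 (0.349), Aqp1 (1.32), Atp6v0d2 (0.533), Ccl8 (1.02), Cd74 (1.20), Ctsk (0.101), Dcstamp (0.454), H2-Aa (1.07), H2-Eb1 (1.07), Klrd1 (1.05), Mmp9 (0.262) and St6galnac4 (0.413) crossed 1 at day 5. Without the cell of most UMIs of each list, also chosen after seeing the data, ratios were 0.332, 0.384 and 0.162 (lining), 0.265, 0.249 and 0.183 (interstitial), 2.44, 3.36 and 0.491 (MHC class II) and 0.317, 0.841 and 7.71 (osteoclast) at days 1, 2 and 5. Without the highest Scrublet scores, ratios were 0.248 and 0.178 (interstitial) at days 2 and 5, 0.159 (lining) and 0.532 (MHC class II) at day 5. Class shares were 0% (monocyte-like) at day 5. At Leiden resolution 0.5, class shares were 0% (interstitial-like) at day 1, 33.3%, 30% and 67.8% (unnamed) at days 1, 2 and 5. At Leiden resolution 2, class shares were 0% (interstitial-like) at day 1, 30% (unnamed) at day 2. With each library clustered by itself, class shares were 0%, 0% and 0% (interstitial-like) at days 1, 2 and 5, 49.3% and 8.47% (MHC class II-like) and 39.1% and 38.1% (unnamed) at days 1 and 5, 0% (monocyte-like) and 28.0% (osteoclast-like) at day 5. A further 22.0% of the proliferating cells of day 5 were then like Arg1 macrophages.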

Other observations

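Osteoclast-like placement at day 5 covered cells of a second kind. Counted by nearest cluster in place of nearest class, 65 proliferating cells were placed there, of which 31 had fewer than 5 Ctsk UMIs and the osteoclast list at 388 CPM. In these 31 cells Myc was at 122 CPM, Npm1, a nucleolar chaperone, at 1949 CPM and Ncl, nucleolin, at 1330.2 CPM. MHC class II was at 6109 CPM and TdTomato at 83.3 CPM, with a reporter UMI in 8 of them. Over all proliferating cells Npm1 was at 702, 673 and 1664 CPM at days 1, 2 and 5 against 389.9, 387 and 509 in the other cells, and Ncl at 659, 625 and 1100.4 CPM against 308, 312 and 339.

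Of 5078 genes outside the cell cycle lists that were tested on all 3 days, 235 were at least 2-fold higher and 225 at least 2-fold lower in proliferating cells on every day. The 235 were 52.0%, 51.8% and 42.4% of the genes higher at days 1, 2 and 5, and the 225 were 48.5%, 41.2% and 28.5% of those lower. At least 2-fold higher at days 1 and 2 and lower at day 5 were 14 genes, named after their values were seen: Ccr2, Cd209a, Cd244, Cd52, Cxcl1, Cytip, Fgl2, Gpr141, H2-DMa, Klrd1, Ltb4r1, Ms4a4c, Napsa and Plbd1. Plbd1 was at 134, 200.4 and 35.9 CPM against 41.0, 29.5 and 145, and Napsa at 239.9, 197 and 74.0 CPM against 62.0, 45.4 and 230.3. The 1 gene with the opposite order was Tfrc, the transferrin receptor, at 5.37, 5.98 and 61.1 CPM against 26.2, 23.9 and 23.5. The Cxcl13 level of 559 CPM in proliferating cells of day 2 came from 1 cell. At day 0, whose retained cells had a median of 1057 UMIs, 12 of 3715 cells met the rule, and they were not used further.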
